A study of Saccharomyces cerevisiae with 9 samples.

Results

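Autophagy is the process by which yeast encloses part of its own cytoplasm in a membrane, the autophagosome, and delivers it to the vacuole for breakdown. The ATG genes encode the machinery: a kinase complex that starts the membrane, factors that supply and shape it, a pair of ubiquitin-like conjugation systems that place ATG8 on it, receptors that select cargo, and vacuolar enzymes that degrade the contents. In growing cells a selective branch, the cytoplasm-to-vacuole targeting (Cvt) pathway, uses much of the same machinery to bring hydrolases to the vacuole. The deletion strains described here are those whose annotated gene symbol is ATG followed by a digit. Genes of the pathway annotated under another symbol, VPS30 among them, are not counted as ATG strains and are read separately below. The platform annotation held 36 such symbols, and 35 of them had a value on at least 1 array, out of 5101 deletion strains in all. ATG4, the protease that trims ATG8, had no value on any array. ATG1, the kinase that starts the process, had a value on the 200 µM array alone, and ATG11, a scaffold of selective autophagy, on the pfd1 array alone.

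The study grew pools of tagged yeast deletion strains with and without sodium arsenite and compared the abundance of every strain's DNA tags on 2-colour arrays, 9 in all, each setting an experimental culture against a control begun from the same cells; on 2 of the 9 the experimental culture too had 0 µM arsenite. The 6 arrays of the haploid pool carried MATa spores of a heterozygous diploid pool, grown to confluence at 30 °C on plates that select such haploids, with 0, 100, 200, 400, 800 or 1600 µM arsenite. A pool of haploids that also carried a pfd1 disruption marked with TEF1pr-URA3, which removes a subunit of the prefoldin cochaperone, was compared at 5 µM on 1 array. The arsenite medium of that array lacked uracil and its control medium contained it, so both differences enter the ratio. Heterozygous diploids, which lack 1 of 2 copies of a gene, were grown as a pool for 10 generations in liquid YPD with 450 or 0 µM arsenite, 1 array each. All pools descend from BY4743 made ura3delta0, leu2delta and his3delta1, with lys2delta0, met15delta0 and can1delta::LEU2-MFA1pr-HIS3 over the intact genes in the diploid, and each strain carries kanMX in place of its gene.

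A strain's value below is the log2 ratio of its tags in the experimental culture over the control culture, averaged over its tags and set relative to the median strain of the same array. A negative value therefore means a larger loss than that of the median strain. The direction is likely and not stated by the submitters. It rests on the strain of the arsenite exporter ARR3, which read -0.05, -5.51, -6.90, -6.60 and -6.52 from 0 to 800 µM, while that of FPS1, the channel through which arsenite enters, read -0.15, 0.26, 0.58, 1.45 and 4.18. With the opposite direction every loss would read as a gain. Each pool and dose has a single array, so no level has a replicate check. For strains with 2 tags the spread between them gave an error of the strain mean between 0.20 and 0.24 on 7 arrays. On the pfd1 and the 1600 µM arrays it was 0.30. For strains with 1 tag the error was between 0.28 and 0.34 on the same 7 arrays. On the pfd1 and the 1600 µM arrays it was 0.43 for 1 tag. Between 2508 and 4904 strains had a value on an array. The 1600 µM array stood apart, with the fewest strains, a deposited median of 2.99 toward loss, against -0.09 to 0.12 on the other arrays, and results for it are given separately.

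In the haploid pool most ATG strains tracked the median strain through 800 µM arsenite. The median of the ATG strains was -0.05 at 0 µM (31 strains), -0.04 at 100 µM (33), -0.05 at 200 µM (34), -0.05 at 400 µM (32) and -0.05 at 800 µM (33). By construction the median of all strains is 0. The quartiles of the ATG strains were -0.40 and 0.23 at 800 µM, against -0.51 and 0.46 for all strains there. The standard deviation across strains at 800 µM was 0.71 for ATG strains and 1.23 for all strains.

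Levels were read against the background range, the central 99% of all strains on the haploid 0 µM array, which ran from -1.39 to 1.37. By its definition 0.512% of strains lie below it and 0.512% above it at 0 µM, where no ATG strain was below and 1, ATG34, above. No ATG strain lay below it at 100, 200 or 400 µM, where 0.831%, 1.53% and 5.75% of all strains did. ATG34 was the 1 ATG strain above it at each of these doses, where 0.367%, 0.839% and 0.825% of all strains were. At 800 µM 2 of 33 ATG strains lay below it, ATG8 at -2.16 and ATG41 at -1.42, against 11.8% of all strains. ATG41 was thus just past the limit. ATG34 alone lay above it at 800 µM, at 1.84, against 7.36% of all strains. ATG34, a receptor related to ATG19, rests on 1 tag that was already high without arsenite: it read 1.72, 1.82, 2.17, 1.53 and 1.84 from 0 to 800 µM, and 1.76 at 450 µM and 1.21 at 0 µM in the diploid pool. Its slope with dose was -0.005, so the high level did not depend on the dose.

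**Figure D1:**
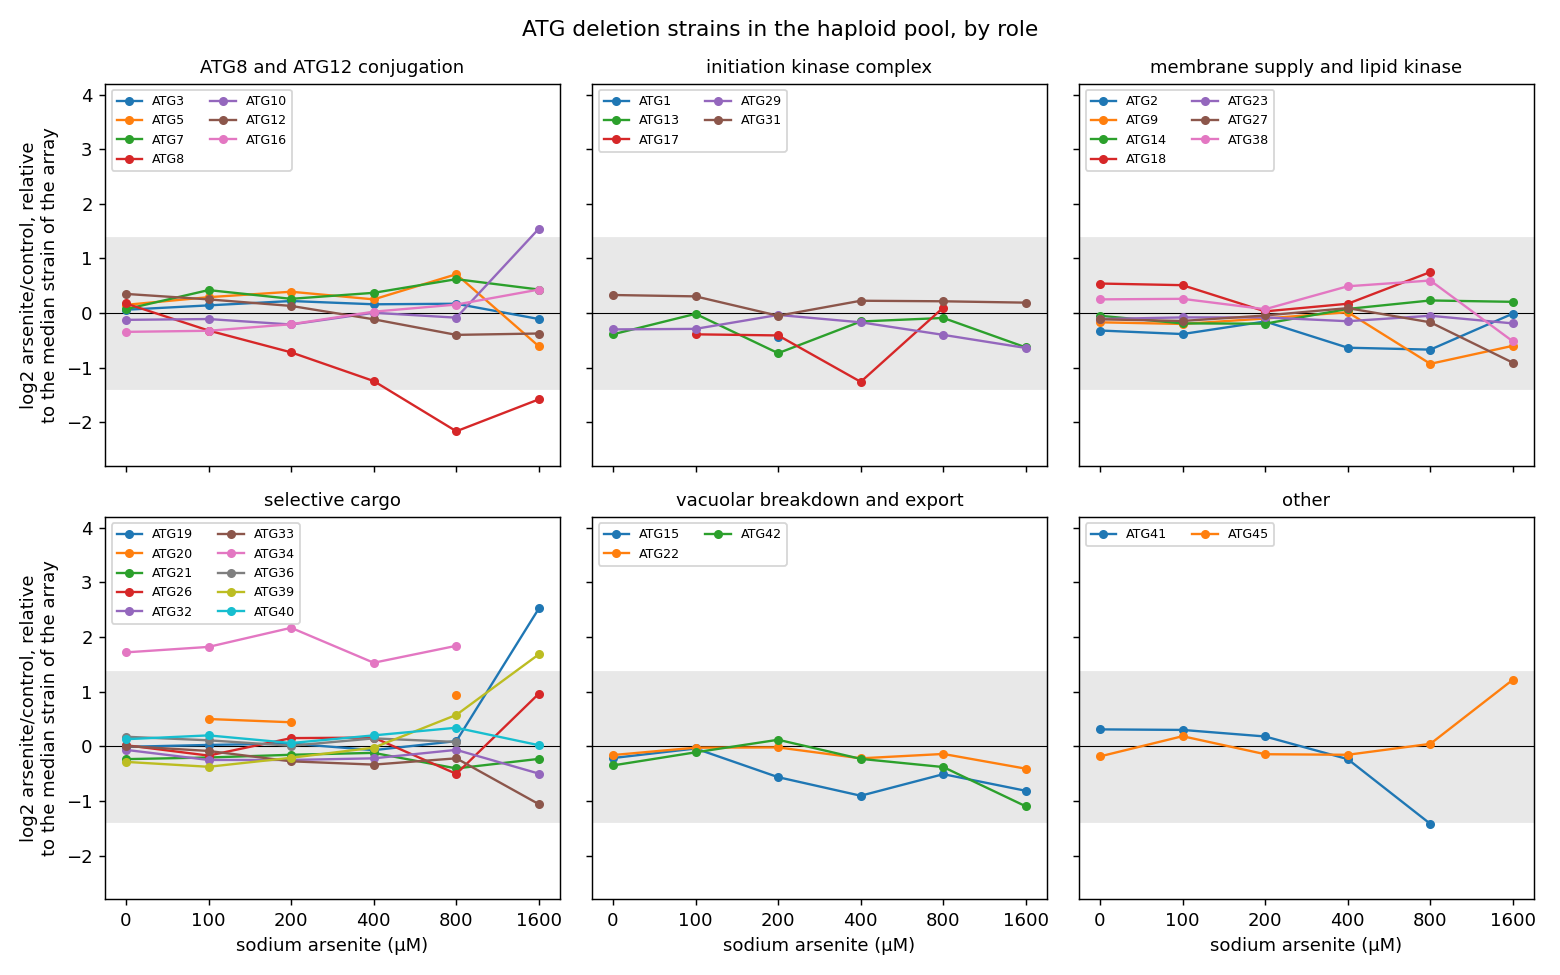
Level of each measured ATG strain (log2 arsenite over control, with the median strain of the array at 0) on the 6 haploid arrays, in panels by role; the doses are equally spaced on the axis. The grey band is the background range from -1.39 to 1.37. ATG8 reads lower at each dose to -2.16 at 800 µM, ATG41 is below the band at 800 µM, and ATG34 is high from 0 to 800 µM.

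The dose response was tested as a straight-line slope over dose, with 0, 100, 200, 400 and 800 µM taken as equal steps, fitted by limma to the 3731 strains measured on all 5 arrays, with Benjamini-Hochberg adjustment over all of them. Of the 31 ATG strains in the fit 1 fell, ATG8, and 0 rose. Of all strains 2.89% fell and 0.214% rose, which is 108 and 8 strains. The split was 145 and 49 after median-absolute-deviation scaling and 43 and 32 after quantile normalization. The median slope was 0.003 for ATG strains and 0.006 for all strains. Among the other 30 ATG strains slopes lay between -0.40 and 0.21, 14 of them negative, and the lowest limma adjusted p was 0.0865. Before adjustment 4 of these had a p under 0.05: ATG41 and ATG12 with negative slopes, ATG39 and ATG16 with positive ones. Their 95% intervals together ran from -0.67 to 0.38 per step. A p-value here sets the slope against the scatter around a straight line, with dose order as the only replication, so a response that bends counts as scatter.

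**Figure D2:**
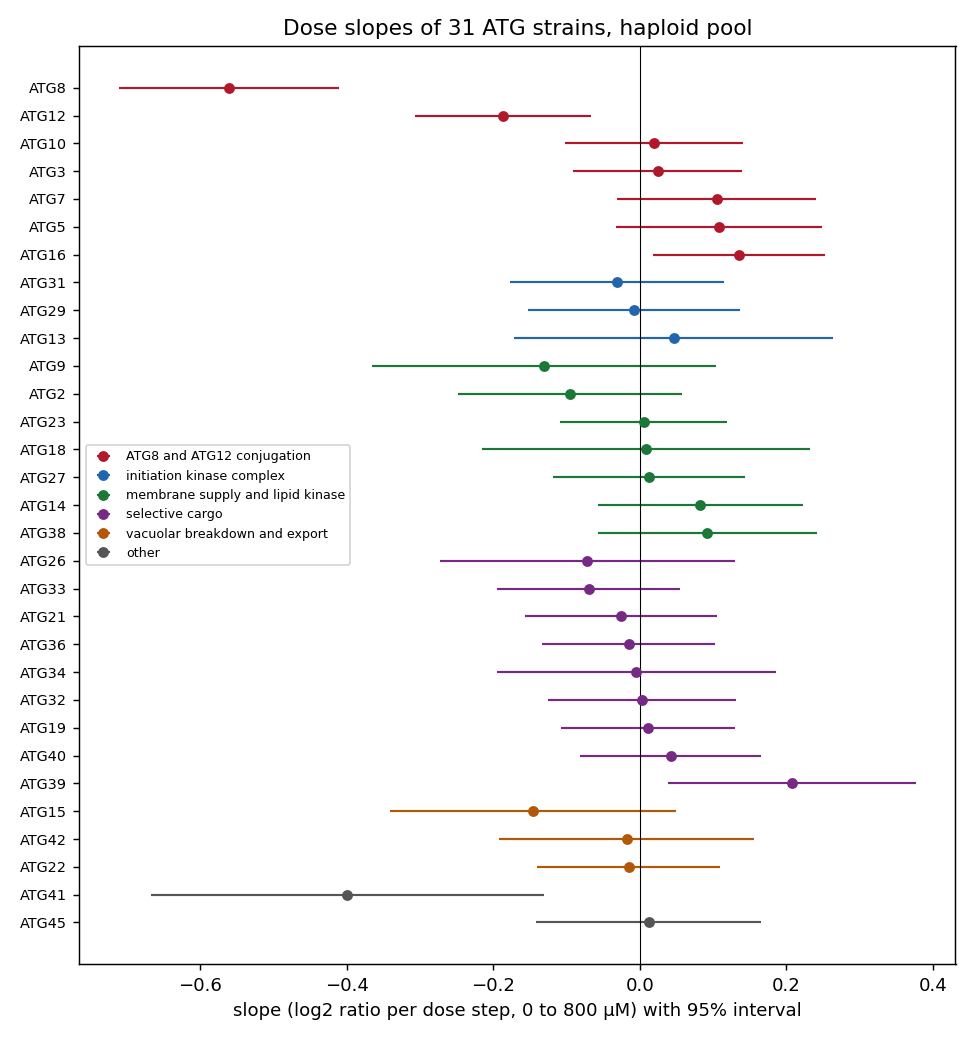
Slope per dose step (log2 ratio, 0 to 800 µM) of the 31 ATG strains in the fit, with limma's 95% interval as the bar and colour for the role. ATG8 at -0.56 is set apart on the left; the others lie between -0.40 and 0.21.

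The ATG8 strain lost ground at every dose step from 0 to 800 µM. ATG8 is the ubiquitin-like protein that is attached to the lipid phosphatidylethanolamine, coats the growing membrane and binds cargo receptors. Its strain read 0.18, -0.32, -0.72, -1.25 and -2.16 from 0 to 800 µM, in falling order with no reversal. The first tag read 0.17, -0.41, -0.86, -1.30 and -2.46, and the second tag 0.18, -0.23, -0.58, -1.19 and -1.87. Both tags thus fell at every step. The slope was -0.56 ± 0.06 per step (SE, limma adjusted p = 0.0246), and the 95% interval ran from -0.71 to -0.41. At 800 µM the strain was the 246th lowest of 3956, and its slope the 191st lowest of 3731, so many strains fell further. The slope was negative without each array in turn, from -0.47 to -0.61, but the call was lost without the 100 µM array (adjusted p = 0.145), the 400 µM array (0.0639) or the 800 µM array (0.0564). It was lost too with the 1600 µM array added (slope -0.42, adjusted p = 0.102), with a trended and robust prior (0.0544), and after quantile normalization, where the slope was -0.30 (adjusted p = 0.171). Scaling each array by its median absolute deviation left a slope of -0.27 (adjusted p = 0.0325).

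None of the 6 measured enzymes and partners that act on ATG8 or ATG12 passed the slope test. ATG7 activates both ubiquitin-like proteins, ATG3 transfers ATG8 to the lipid, ATG10 transfers ATG12 to ATG5, and the ATG12-ATG5 conjugate with ATG16 directs ATG8 to the membrane. At 800 µM ATG5 read 0.71, ATG7 0.62, ATG3 0.17, ATG16 0.16, ATG10 -0.08 and ATG12 -0.40. All 6 lay inside the background range there. ATG3, ATG5 and ATG7 rest on 1 tag each. ATG12 read lower at each dose without passing with equal steps: it read 0.35, 0.25, 0.13, -0.11 and -0.40 (slope -0.19 ± 0.05, limma adjusted p = 0.0865). With dose in µM in place of equal steps it did pass (-0.38 per 400 µM, limma adjusted p = 0.0223). Its tags differed at 800 µM, with the second at -0.73 and the first at -0.07. ATG16 did not pass either, with -0.34, -0.32, -0.20, 0.02 and 0.16 (slope 0.14 ± 0.05, adjusted p = 0.139).

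ATG8 minus each partner in slope per step was -0.37 to ATG12, -0.58 to ATG10, -0.58 to ATG3, -0.67 to ATG7, -0.67 to ATG5 and -0.70 to ATG16. These differences are a description with no test, since ATG8 was singled out for its slope. The genes on either side of ATG8 are NUP170 and ILS1. The strain of NUP170, a nuclear pore protein, read 0.48, -0.14, -1.24, -0.96 and -0.01 from 0 to 800 µM. ILS1 had no haploid value. The part of either neighbour in the ATG8 value was not tested.

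The kinase complex that starts an autophagosome had no strain that passed the test. ATG13, its regulatory subunit, read -0.39, -0.01, -0.74, -0.16 and -0.09 from 0 to 800 µM. ATG29 and ATG31, which bind the scaffold ATG17, read -0.40 and 0.22 at 800 µM, against -0.30 and 0.33 at 0 µM. ATG17 rests on 1 tag with no 0 µM value and read -0.39, -0.41, -1.26 and 0.10 from 100 to 800 µM. The dip at 400 µM was not seen at the doses beside it. The single ATG1 value, at 200 µM, was -0.43. Slopes of the 3 strains in the fit lay between -0.03 and 0.05.

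Factors that supply the membrane and its lipid signal also had no call among 7 strains, with slopes between -0.13 and 0.09. ATG9, the membrane protein that seeds the autophagosome, read -0.17, -0.20, -0.10, 0.02 and -0.93, and the first and last of these rest on the second tag alone. ATG2, which transfers lipids into the growing membrane, read -0.32, -0.38, -0.16, -0.64 and -0.67. Its tags at 800 µM were -0.73 and -0.61. ATG18, the phosphoinositide-binding partner of ATG2, rests on 1 tag and read 0.54 at 0 µM and 0.75 at 800 µM. ATG14 and ATG38, the subunits that give the lipid kinase VPS34 its role in autophagy, read 0.23 and 0.60 at 800 µM, against -0.05 and 0.25 at 0 µM. ATG23 and ATG27, which traffic with ATG9, read -0.05 and -0.17 at 800 µM.

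Among strains of selective autophagy ATG39 stood highest in slope. ATG39 is a receptor for the nuclear envelope and endoplasmic reticulum. Its strain read -0.28, -0.38, -0.21, -0.02 and 0.58 from 0 to 800 µM, with both tags positive at 800 µM (0.69 and 0.46). The slope of 0.21 ± 0.07 did not pass (limma adjusted p = 0.124), and all 5 levels lay inside the background range. ATG40, the other endoplasmic reticulum receptor, read 0.34 at 800 µM, and ATG32 and ATG33, which act in the removal of mitochondria, -0.06 and -0.22. ATG36, the peroxisome receptor, read 0.08. ATG19, the main Cvt receptor, read 0.10, and the sorting nexin ATG20, with 1 tag, 0.94. ATG21, which binds phosphoinositides, read -0.40, and ATG26, a sterol glucosyltransferase, -0.50 with tags 0.85 apart.

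In the vacuole ATG15 is the lipase that opens the delivered vesicles, ATG22 exports amino acids and ATG42 is a carboxypeptidase. ATG15 read -0.22, -0.04, -0.56, -0.90 and -0.51 from 0 to 800 µM (slope -0.15 ± 0.08, limma adjusted p = 0.288). Its tags read -0.43 and 0.00 at 0 µM, -0.30 and 0.22 at 100 µM, and -0.83 and -0.30 at 200 µM. They were closer at 400 µM, at -0.93 and -0.88, and at 800 µM, at -0.62 and -0.40. ATG22 read -0.14 and ATG42 -0.38 at 800 µM, against -0.16 and -0.35 at 0 µM.

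ATG41, a protein that binds ATG9, was low at 800 µM alone. It read 0.31, 0.30, 0.18, -0.24 and -1.42 from 0 to 800 µM, and its tags at 800 µM were -1.48 and -1.36. The slope of -0.40 ± 0.11 did not pass (limma adjusted p = 0.0925), but with dose in µM in place of equal steps it did (-0.90 per 400 µM, adjusted p = 0.00295). That scale, under which 554 strains pass as lower and 474 as higher, rests mostly on the 800 µM array. The tag signal annotated to YAH1, the measured gene next to ATG41, read -0.47, -1.08, -0.82, -1.89 and -1.84 at the same doses. Neither the presence of a haploid strain lacking YAH1 nor a part of YAH1 in the ATG41 value was tested. ATG45, for which no role is given here, read 0.04 at 800 µM.

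Other genes of the pathway were read from lists of 28 genes, of which 26 had a value and 21 entered the fit. By limma 0 of the 21 fell and 0 rose; before adjustment 2 had a p under 0.05 with a negative slope and 1 with a positive slope, and the median slope was -0.02. At 800 µM 1 of 22 lay below the background range and 0 above it, beside 11.8% and 7.36% of all strains. The low strain was VPS34, the phosphatidylinositol 3-kinase, which also sorts proteins to the vacuole outside autophagy. It read 0.00, -0.27, -0.61, -1.90 and -4.37 from 0 to 800 µM, the last from 1 tag (slope -1.04 ± 0.20, limma adjusted p = 0.0585). Its partner VPS15, a kinase, read -0.08, -0.08 and -1.08 at 100, 200 and 400 µM and had no value at 0 or 800 µM. The other subunits did not follow: VPS30, shared by both forms of the kinase complex, read 0.58 at 800 µM, and VPS38, of the form that acts in sorting, 0.25. The other genes with p under 0.05 before adjustment were VPS45, which acts in vesicle fusion (slope -0.30, adjusted p = 0.0655), and NPR1, a kinase held inactive by TORC1 (slope 0.28, adjusted p = 0.0613). The vacuolar proteases PEP4, PRB1 and PRC1 read -0.38, -0.53 and -0.34 at 800 µM, inside the background range.

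At 1600 µM 27 ATG strains had a value, with a median of -0.23 relative to the median strain. A deposited ratio of 0 corresponds only roughly to a value of 2.99 there. That deposited median is over probes, whereas centring used the median strain. Of the 27, ATG8 lay below the background range at -1.58, from its first tag alone, against 3.99% of all strains. ATG19 at 2.52, ATG39 at 1.68 and ATG10 at 1.55 lay above it, against 14.5% of all strains. The tags of ATG19 read 2.68 and 2.37, those of ATG39 1.92 and 1.45, and those of ATG10 1.01 and 2.08. AMS1, the mannosidase that ATG19 carries to the vacuole, read 6.75 at 1600 µM from 1 tag, against 0.49 at 800 µM. The other Cvt cargo strains read 0.66 (APE4), 0.28 (LAP3) and -0.28 (APE1) at 1600 µM, inside the background range. Among the other listed pathway genes TOR1 read 3.3 and NPR1 2.4 at 1600 µM, each from 2 tags, above the background range. AMS1, TOR1 and NPR1 are named here after their values were seen. ATG10 lies next to FPS1, whose strain read 4.18 at 800 µM and had no value at 1600 µM. ATG10 itself read -0.08 at 800 µM, and the part of FPS1 in its value at 1600 µM was not tested. ATG19 lies between ATG34 and IRA2, whose strains read 1.84 and -4.40 at 800 µM and had no value at 1600 µM. ATG41 had no value at 1600 µM. Over the strains with 2 values at 1600 µM the tags of ATG strains differed by 0.75 in the median, against 0.20 at 800 µM.

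In haploids carrying the pfd1 disruption, at 5 µM and without uracil, 34 ATG strains had a median of -0.05 and ran from -1.61 to 1.05. Below the haploid background range lay 1 of 34, ATG27 at -1.61, and 0 lay above it; of all strains 4.47% and 5.64% did. The tags of ATG27 read -2.24 and -0.99. On the haploid arrays from 0 to 800 µM ATG27 lay between -0.17 and 0.09, and at 1600 µM it read -0.91, with tags of -0.87 and -0.95. ATG27 lies between PFD1, the disrupted gene, and RPL17B, whose strains read -0.11 and 1.98 here. The 19 measured strains within 10 genes of ATG27 had a median of 0.22 but ran from -2.77 to 2.95, with 1 of them below the range. The part of the adjacent pfd1 disruption in the ATG27 value was not tested. Next in order were ATG21 at -1.12, with tags of -1.65 and -0.59, and ATG15, with tags of -0.59 and -1.42. The uracil synthesis strains URA1, URA4 and URA5 read -5.23, -3.98 and -4.32 on this array; the part of the medium in the ATG values was not tested. ATG8 read 0.98 here, but its tags of 1.79 and 0.17 differed more than those of any other ATG strain. ATG18 was highest at 1.05, followed by ATG13 at 0.96 and ATG2 at 0.95. ATG11 read -0.66. No array of this pool without arsenite was analysed here, so a constant dye bias of a tag remains in these values.

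**Figure D3:**
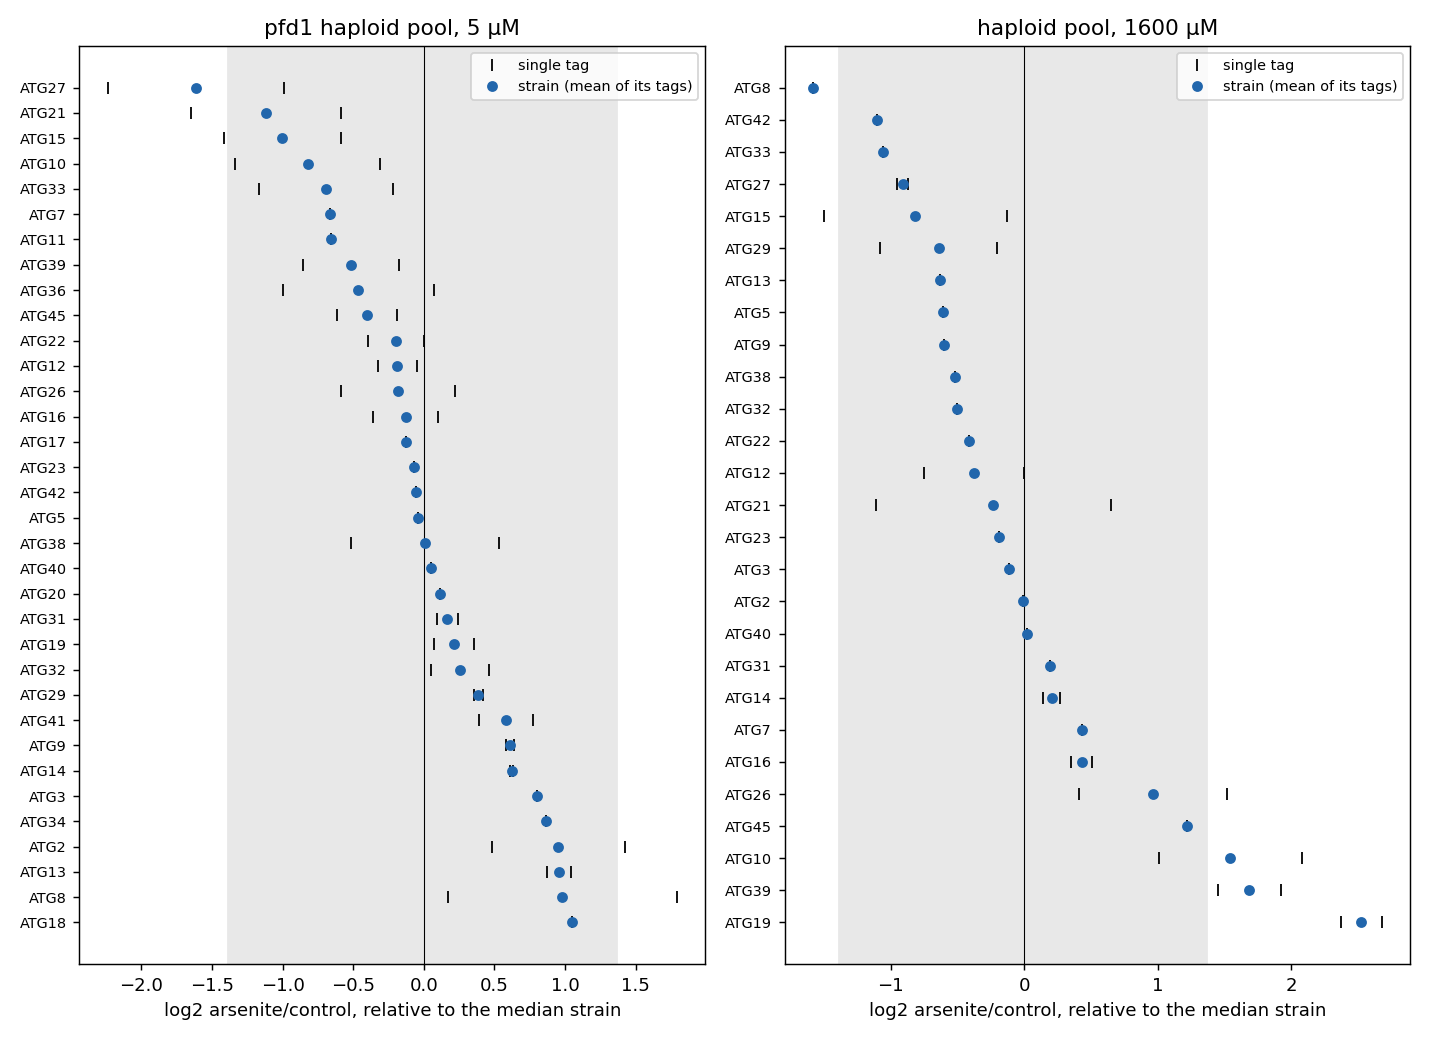
Levels of the ATG strains (log2 ratio relative to the median strain) in the pfd1 haploid pool at 5 µM, left, and in the haploid pool at 1600 µM, right, ordered by value. Dots are strains, ticks are single tags and the grey band is the haploid background range; ATG27 on the left and ATG8, ATG10, ATG39 and ATG19 on the right lie outside it.

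In the heterozygous diploid pool, where a strain keeps 1 copy of the gene, 30 ATG strains were measured on both arrays. The difference between the 450 µM and the 0 µM array had a median of 0.08 (all strains -0.01), and ran from -1.10 to 0.57. The error of a difference from the tag pairs was 0.32 for strains with 2 tags and 0.45 for strains with 1. Lower by over 1 was 1 of the 30, ATG15, against 1.94% of all strains, and 0 were higher by over 1, against 1.09%. On the 450 µM array ATG15 and ATG39 lay below the central 99% of the diploid 0 µM array, which ran from -0.87 to 1.13, as did 2.41% of all strains, and ATG34 above it, as did 0.918%. On the 0 µM array itself no ATG strain was below and ATG34 was above, beside 0.511% of all strains on each side.

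ATG15 read -1.22 at 450 µM and -0.12 at 0 µM. Its tags were -1.32 and -1.13 at 450 µM, against 0.07 and -0.31 at 0 µM, so both were lower with arsenite. ATG15 is YCR068W, a right-arm gene of chromosome III. Of the 77 measured strains of that arm 22 (28.6%) were lower by over 1, against 1.49% of the strains outside chromosome III. The part of this chromosome arm in the ATG15 difference was not tested. The adjacent strains CPR4 and SED4 read -0.05 and -0.36 at 450 µM, against -0.06 and -0.14 at 0 µM. ATG22, on the left arm, read 0.29 at 450 µM and -0.06 at 0 µM.

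ATG39 read -0.98 at 450 µM and -0.12 at 0 µM, a difference of -0.86, with tags of -0.77 and -1.20 at 450 µM, against -0.10 and -0.15 at 0 µM. ATG45 had a difference of -0.78, from -0.54 at 450 µM and 0.24 at 0 µM. The ATG strain lowest in the haploid pool at 800 µM differed by less than its error: ATG8 read 0.14 at 450 µM and 0.06 at 0 µM, a difference of 0.08, and its tags differed in sign at 450 µM (-0.19 and 0.48). ATG41 read 0.38 at 450 µM and 0.58 at 0 µM. The highest difference, 0.57 for ATG5, rests on 1 tag, with an error of 0.45.

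**Figure D4:**
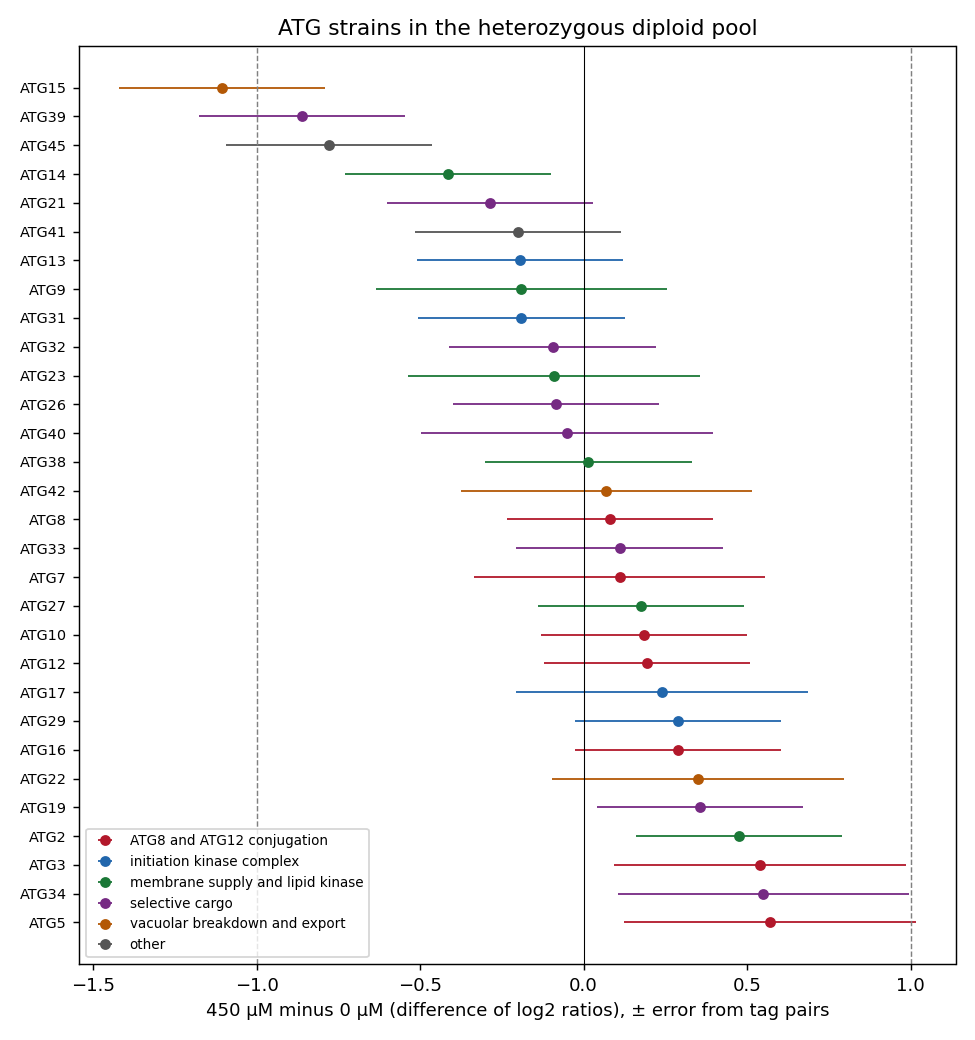
Difference between the 450 µM and the 0 µM heterozygous diploid arrays for the 30 ATG strains measured on both, with bars of 1 error from tag pairs and dashed lines at -1 and 1. ATG15, ATG39 and ATG45 are lowest at -1.10, -0.86 and -0.78, and ATG8 lies at 0.08.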

How the data were processed

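The authors deposited 1 log ratio per tag probe and array, read here as log2. Log base, centring, direction, normalization and filters stay unknown; were the base e, all values would scale up alike. Per the labels, controls carried Cy5 and arsenite cultures Cy3 on all 9 arrays with no dye swap. A tag's dye bias therefore remains in single-array values. The sign was turned to arsenite over control, probes of a gene were averaged (8765 of 9727 probes with a value name 1 gene; 8 annotated probes had no match in the R64 gene table), and each array was centred on its median strain. Probes do not say which tag they are, so "first" and "second" follow table order. Of the ATG strains 23 had 2 tags and 12 had 1. The slope test used lmFit and eBayes of limma 3.58.1 (R 4.3.3) at an adjusted p under 0.05. It was also run on simulated data, and no outcome of that run is used here. Every annotated ATG strain is accounted for; the rule named other genes only from fixed pathway lists, where they passed the slope test, lay outside the background range at 800 µM or made up a count under 6, beside ARR3 and FPS1. VPS15, VPS30, VPS38, TOR1, the vacuolar proteases, the Cvt cargo genes, the URA genes and the neighbours of ATG genes fall outside it and were chosen after their values were seen. Members and lists were chosen with earlier results of these data known. Random strain sets were not drawn. No sequences are shown. Alternatives covered doses, scaling, prior, tags and thresholds.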

Additional observations from a re-analysis of the deposited data

Results flagged for a closer look

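ATG39 read in opposite directions in the haploid and the diploid pool. In haploids the level at 800 µM minus that at 0 µM was 0.86, and in heterozygous diploids the level at 450 µM minus that at 0 µM was -0.86, each over 2 times the error from tag pairs (0.30 and 0.32). Both tags showed the direction in each pool. That error does not cover differences between arrays, and the share of all strains with such a contrast is not given. By level ATG39 was the 3123rd lowest of 3956 strains at 800 µM in haploids. In diploids it was the 95th lowest of 4904 at 450 µM. The haploid level at 800 µM, 0.58, lay inside the background range, and the slope did not pass (limma adjusted p = 0.124). Over all strains the standard deviation was 1.23 on the haploid 800 µM array and 0.44 for the diploid difference. The pools differ in dose, medium and gene copies, each has 1 array per dose, and the difference between them was not tested.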

How the results depend on the processing

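Each array is single, so precision is limited by the number of arrays, and levels carry only the error between tags. Of the slope alternatives, 0 ATG strains were lower (1 as reported) with the 1600 µM array, quantile normalization, a trended and robust prior, or arsenite arrays against the 0 µM array, where the ATG8 difference was -1.29; with dose in µM 3 were lower and 1 higher (ATG8 -1.12 per 400 µM, ATG41, ATG12 at -0.38, and ATG39 at 0.47). Leaving out an array gave 0 to 1 ATG strains lower and 0 higher. Over all strains 108 were lower and 8 higher as reported; 0 and 0 with 1600 µM, with the trended prior or against 0 µM; 43 and 32 by quantile; 554 and 474 in µM; 52 and 3 with the second tag; 7 to 108 and 0 to 8 with an array left out. They were 145 and 49 with median-absolute-deviation scaling, 95 and 4 with at least 4 arrays, 73 and 5 with at least 2 tags, and 130 and 13 with the first tag. The cause of these shifts was not tested. For levels, the central 95% range gave 1 ATG strain below at 200 µM, 3 at 400 µM, 2 above at 800 µM, 5 below and 5 above at 1600 µM, and 4 below and 5 above on the pfd1 array; a 2-fold threshold gave 2 below at 400 µM, 3 below at 1600 µM, and 3 below and 1 above on the pfd1 array. With strains of at least 2 tags, which leaves out ATG34, 0 lay above from 0 to 800 µM; set against the 0 µM array, 0 lay above from 100 to 800 µM and 1 below at 400 µM. In diploids 1 ATG strain (ATG34) was above 1 on the 450 µM array alone, and 0 were lower by over 1 after median-absolute-deviation scaling. No direction of a slope named in the text (ATG8, ATG12, ATG15, ATG16, ATG39, ATG41) turned under any alternative run. No paired analysis was possible because each group has 1 array.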
